A study of Mus musculus with 12 samples.

Results

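The genes described here are 32 genes of the B lymphocyte lineage, from the antigen receptor of resting B cells to the secretory program of plasma cells, in mouse mammary tissue of 4 Stat5 genotypes. A probe set belonged to them if the platform annotation gave it 1 of the 32 gene symbols, and each gene was read from its probe set with the highest mean signal over the 12 arrays. All 32 genes had a probe set (49 probe sets, with 11 genes on several), of 18193 genes on the array with a probe set of their own. The members were divided into 18 genes of mature, follicular B cells, 7 plasma cell genes and 7 genes of the lineage or the follicle that fit neither heading. Of these, 17, 7 and 7 lay above the filter on low signal, a mean of log2 6.04 over the 12 arrays, and were tested among 14198 genes. Pax5, the transcription factor that fixes B cell identity, was the member below it.

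Transcript levels were measured on Affymetrix arrays in mammary tissue collected 6 days after a vaginal plug was seen, from 12 mice on a mixed C57BL/6, FVB and 129 background. Stat5a-/- mice (n = 3) kept both Stat5b alleles and 0 of Stat5a, and Stat5ab+/null mice (n = 3) kept 1 allele of each gene. Stat5abnull/Stat5b- mice, called single-Stat5a, kept 1 Stat5a and 0 Stat5b alleles, and Stat5abnull/Stat5a- mice, called single-Stat5b, kept 0 Stat5a and 1 Stat5b allele (n = 3 each). All 4 genotypes thus lack at least 2 Stat5 alleles, and no wild-type array was analysed here. Beside the mammary tissue of the series design, the labels mention sorted cells and an Mx1-Cre transgene switched on by PolyIC, without naming the mice concerned.

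B cells carry a surface antigen receptor whose signalling chains are encoded by Cd79a and Cd79b, and resting follicular B cells add the complement receptor Cr2, the IgE receptor Fcer2a and the chemokine receptor Cxcr5, which guides them into follicles of lymphoid organs. On activation a part of them becomes plasma cells, which lose many of these genes under Prdm1 and Irf4, expand their secretory pathway under Xbp1 and release antibody, with Jchain joining the subunits of IgA and IgM. The mammary fat pad of the mouse contains a lymph node, rich in follicular B cells, and the pregnant gland recruits IgA plasma cells toward lactation. Xbp1, Sdc1 and Prdm1 are also transcribed in epithelial cells.

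The arrays formed 2 sets, the 6 with 2 intact alleles (Stat5a-/- and Stat5ab+/null) and the 6 with 1 intact allele (single-Stat5a and single-Stat5b). Over all probe sets, Pearson r was 0.818 to 0.883 between arrays of different sets and 0.948 to 0.994 between arrays of 1 set. For the actin control, whose 3' signal exceeds its 5' signal as RNA or labelling gets shorter, the gap between both ends was 0.13 to 0.27 in the first set and 2.16 to 3.78 in the second. The set and the number of alleles cannot be told apart, so genotypes were compared within a set and levels across sets are given without comparison. The targeted genes did not follow the labels throughout. The brighter Stat5a probe set averaged 10.30 ± 0.18 (SD, n = 3) in the arrays labelled Stat5a-/- and 9.91 ± 0.15 in those labelled Stat5ab+/null, though the former have fewer Stat5a alleles. The other Stat5a probe set ran the same way, at 8.94 ± 0.34 and 8.37 ± 0.40. Both Stat5b probe sets were lower in the arrays labelled Stat5a-/-, which have more Stat5b alleles, at 8.27 ± 0.09 against 8.52 ± 0.18 and, with no overlap, 9.59 ± 0.07 against 9.90 ± 0.07. Titles read ABB for the former and AAB for the latter, with no meaning stated. Between single-Stat5a and single-Stat5b the means of all 4 probe sets followed the labels, with the brighter Stat5a probe set at 12.21 ± 0.34 and 10.98 ± 0.11. Whether the probes fall inside the deleted parts was not stated, so every direction between Stat5a-/- and Stat5ab+/null below rests on the labels. Epithelial and fat cell markers of mammary tissue were high in every array, with Krt8, a luminal keratin, at 12.77 to 13.68 and Adipoq, the adipocyte hormone adiponectin, at 13.72 to 14.64. In such bulk tissue, fewer cells of a type and less RNA per cell cannot be told apart.

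Upstream sequences are shown for a few members, among them both that held an octamer, so the lines do not represent the whole list. Cd79a, Vpreb3, Blnk and Jchain varied together among the 6 arrays with 2 alleles, whereas Xbp1 did not. The lines give the 250 bases before the gene start, 5′ to 3′ in the direction of the gene, from RefSeq on GRCm38.p6. Capitals mark the octamer that Pou2 factors bind with the coactivator Pou2af1, searched as ATGCAAAT and its reverse complement ATTTGCAT.
Cd79a (chr7:24897247-24897496, + strand): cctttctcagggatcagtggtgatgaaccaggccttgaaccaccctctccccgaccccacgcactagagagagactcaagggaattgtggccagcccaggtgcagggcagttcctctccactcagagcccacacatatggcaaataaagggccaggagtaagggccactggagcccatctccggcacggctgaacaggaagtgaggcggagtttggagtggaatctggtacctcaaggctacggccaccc
Vpreb3 (chr10:75948050-75948299, + strand): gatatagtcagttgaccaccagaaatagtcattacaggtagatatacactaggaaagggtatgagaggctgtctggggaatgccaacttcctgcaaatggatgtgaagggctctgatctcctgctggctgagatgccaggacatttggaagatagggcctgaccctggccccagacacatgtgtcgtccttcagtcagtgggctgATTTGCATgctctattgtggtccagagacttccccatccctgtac
Blnk (chr19:40994222-40994471, - strand): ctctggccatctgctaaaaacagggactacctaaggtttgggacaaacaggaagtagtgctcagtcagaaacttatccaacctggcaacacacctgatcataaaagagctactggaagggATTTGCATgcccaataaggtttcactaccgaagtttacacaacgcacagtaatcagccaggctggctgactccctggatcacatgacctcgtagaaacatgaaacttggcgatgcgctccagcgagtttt
Jchain (chr5:88527898-88528147, - strand): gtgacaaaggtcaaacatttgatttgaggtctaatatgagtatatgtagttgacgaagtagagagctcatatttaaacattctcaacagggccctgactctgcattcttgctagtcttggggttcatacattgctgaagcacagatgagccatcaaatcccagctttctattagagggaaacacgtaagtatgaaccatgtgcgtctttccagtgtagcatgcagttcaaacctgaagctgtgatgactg
Xbp1 (chr11:5520391-5520640, + strand): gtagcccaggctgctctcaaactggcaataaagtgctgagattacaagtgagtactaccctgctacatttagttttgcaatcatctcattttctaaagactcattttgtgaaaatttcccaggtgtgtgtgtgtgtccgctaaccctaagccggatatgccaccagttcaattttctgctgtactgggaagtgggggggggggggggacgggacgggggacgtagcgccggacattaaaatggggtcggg
A promoter sequence was matched for 25 of the 32 members. Of these, Vpreb3 and Blnk held an exact octamer, 45 and 130 bases before the gene start, as did 1.6% of the 32851 promoters in the table. In the mice with 2 alleles Vpreb3 and Blnk spanned 2.68 and 2.22 on the log2 scale, below the follicular median of 4.19. A link between the octamer and the order of the arrays was not tested. The absence of these letters from the other windows says nothing of the factor.

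Among the mice with 2 intact alleles, B cell transcripts set individual mice apart, within each genotype. Stat5a-/- 3 and Stat5ab+/null 2 lay above the other 4 arrays for all 17 follicular genes, all 7 other lineage genes, Jchain and Mzb1, which is 26 of the 31 members past the filter (83.9%) against 9.73% of all 14198 genes. Stat5ab+/null 3 was the next highest array for 24 of the 31. The exceptions to the first count were Xbp1, Irf4, Prdm1, Tnfrsf17 and Sdc1, all plasma cell genes. This order was found on these same arrays and is given as a description.

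The members spread widely. From the lowest to the highest of the 6 arrays, the median range was 4.19 on the log2 scale for follicular genes, 4.28 for other lineage genes and 0.81 for plasma cell genes, against 0.49 for all genes tested. The range reached 3 on the log2 scale for 19 of 31 members and for 0.634% of all genes.

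**Figure D1:**
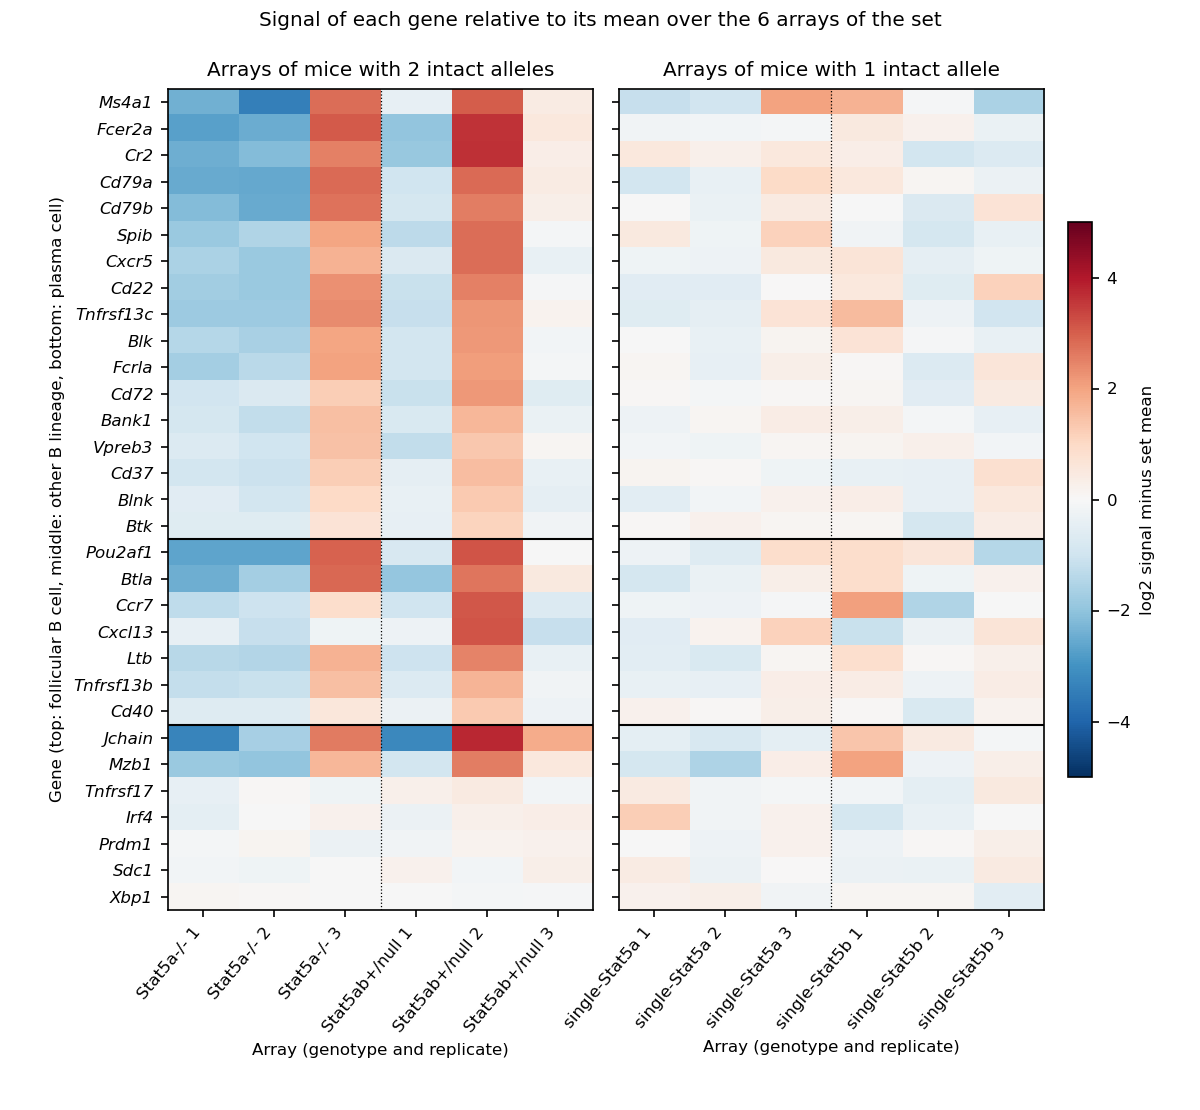
Log2 signal of the 31 members past the filter in each array (columns, by genotype and replicate), as the difference from the gene's mean over the 6 arrays of its set. On the left, Stat5a-/- 3 and Stat5ab+/null 2 are red for follicular and other lineage genes, Jchain and Mzb1, except Cxcl13 in Stat5a-/- 3, and the 5 lowest rows are pale. On the right, colours are weaker and no pair of arrays is red throughout.

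The antigen receptor genes set the pattern. Cd79b, the beta signalling chain, gave log2 signals of 7.56, 7.18 and 12.40 across the Stat5a-/- arrays, in order of replicate, and 8.82, 12.28 and 10.01 across the Stat5ab+/null arrays. Cd79a, the alpha chain, gave 7.07, 7.02 and 12.44, and then 8.60, 12.41 and 10.01. Stat5a-/- 3 and Stat5ab+/null 2 were thus nearly equal for both chains, and the other Stat5a-/- arrays were the lowest of the 6. Between the lowest and the highest array the signal differed 37.5-fold for Cd79b and 42.8-fold for Cd79a. Cd72, an inhibitory coreceptor, gave 7.37, 7.62 and 9.55 in Stat5a-/- and 7.22, 10.48 and 7.74 in Stat5ab+/null. Cd22, another inhibitory coreceptor, ranged from 7.81 to 12.20 over these arrays.

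The genes that carry the receptor signal inward had the same arrays on top. Blnk, the linker that joins the receptor to phospholipase C, gave 9.30, 8.96 and 10.87 in Stat5a-/- and 9.51, 11.18 and 9.43 in Stat5ab+/null. Bank1, a B cell scaffold protein, gave 8.51, 8.16 and 10.89, and then 8.60, 11.05 and 9.03. Both spanned less than 3 on the log2 scale, and Blnk in Stat5ab+/null 3 lay below Stat5ab+/null 1. Blk, a Src family kinase of B cells, ranged from 6.59 to 10.38 and Btk, the kinase lost in X-linked agammaglobulinaemia, from 8.38 to 10.08.

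Ms4a1 had the widest range of the follicular genes. This gene, which encodes CD20, gave 7.74, 6.71 and 12.93 in Stat5a-/- and 9.71, 13.14 and 10.55 in Stat5ab+/null, an 86.1-fold span. Cr2, the complement receptor CD21 of B cells and follicular dendritic cells, gave 4.83, 5.10 and 9.78, and then 5.36, 10.93 and 7.61. Both genes were high in the same arrays, and Cr2 in Stat5a-/- 1 and 2 and Stat5ab+/null 1 lay under the filter level. Fcer2a, the low-affinity IgE receptor CD23, spanned 5.59 to 11.95. Cd37, a tetraspanin of B cells, gave 9.76, 9.61 and 11.92, and then 10.25, 12.24 and 10.33. Fcrla, an intracellular Fc receptor-like protein, gave 5.68, 6.01 and 9.36, and then 6.44, 9.45 and 7.26. Vpreb3, which associates with immunoglobulin chains inside the cell, gave 7.21, 6.94 and 9.38, and then 6.70, 9.25 and 8.00. In all 3 the same pair was high and Stat5ab+/null 3 came next.

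Transcription factors and survival receptors of the lineage showed the same arrays on top. Pou2af1, the coactivator of octamer-binding factors, gave 5.37, 5.37 and 10.94 in Stat5a-/- and 7.20, 11.12 and 7.96 in Stat5ab+/null. Spib, an Ets family factor, gave 5.80, 6.15 and 9.63, and then 6.38, 10.48 and 7.58. Pax5, below the filter, reached 6.47 and 6.87 in Stat5a-/- 3 and Stat5ab+/null 2 and lay at 5.74 to 6.24 in the other 4 arrays. Its other probe set, also below the filter and of nearly equal mean, reached 7.97 and 7.82 in that pair. It lay at 5.64 to 6.45 in the other 4 arrays. Tnfrsf13c, the BAFF receptor that keeps mature B cells alive, gave 5.69, 5.70 and 9.88 in Stat5a-/- and 6.34, 9.73 and 7.69 in Stat5ab+/null. Tnfrsf13b, the receptor TACI, gave 7.24, 7.32 and 9.91, and then 7.72, 10.11 and 8.23. Tnfrsf17, the receptor BCMA of plasma cells, differed from its relatives, at 6.61, 7.06 and 6.79, and then 7.26, 7.48 and 6.89. Its 6 arrays lay within 0.88 of each other on the log2 scale.

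Among genes of follicle homing and costimulation, Cxcl13 and Ccr7 lay well above Stat5a-/- 3 in Stat5ab+/null 2. Cxcl13, the chemokine made by follicular stroma that attracts Cxcr5-bearing B cells, gave 9.46, 8.72 and 9.67 in Stat5a-/- and 9.63, 13.00 and 8.72 in Stat5ab+/null. It stood high in Stat5ab+/null 2 alone, 3.33 on the log2 scale above Stat5a-/- 3, which barely exceeded Stat5ab+/null 1. Ccr7, the receptor for T zone chemokines, gave 5.87, 6.07 and 8.01, and then 6.12, 10.21 and 6.44. Ccr7 was 2.21 higher in Stat5ab+/null 2 than in Stat5a-/- 3, while the median gap between these arrays was 0.23 over follicular genes, 0.94 over 11 T cell genes and 0.062 over all genes. The next largest gaps among the members past the filter were those of Jchain (1.16) and Cr2 (1.15), and Btla was 0.22 on the log2 scale lower in Stat5ab+/null 2. Cxcr5 itself gave 9.16 in Stat5a-/- 3 and 10.22 in Stat5ab+/null 2 and 5.57 to 7.04 in the other arrays. Cd40, the costimulatory receptor of B cells, gave 7.35, 7.34 and 8.54, and then 7.67, 9.27 and 7.71. Ltb, the lymphotoxin subunit needed to build lymphoid follicles, ranged from 8.26 to 12.20, and Btla, an inhibitory receptor of B and T cells, from 6.06 to 11.38.

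**Figure D2:**
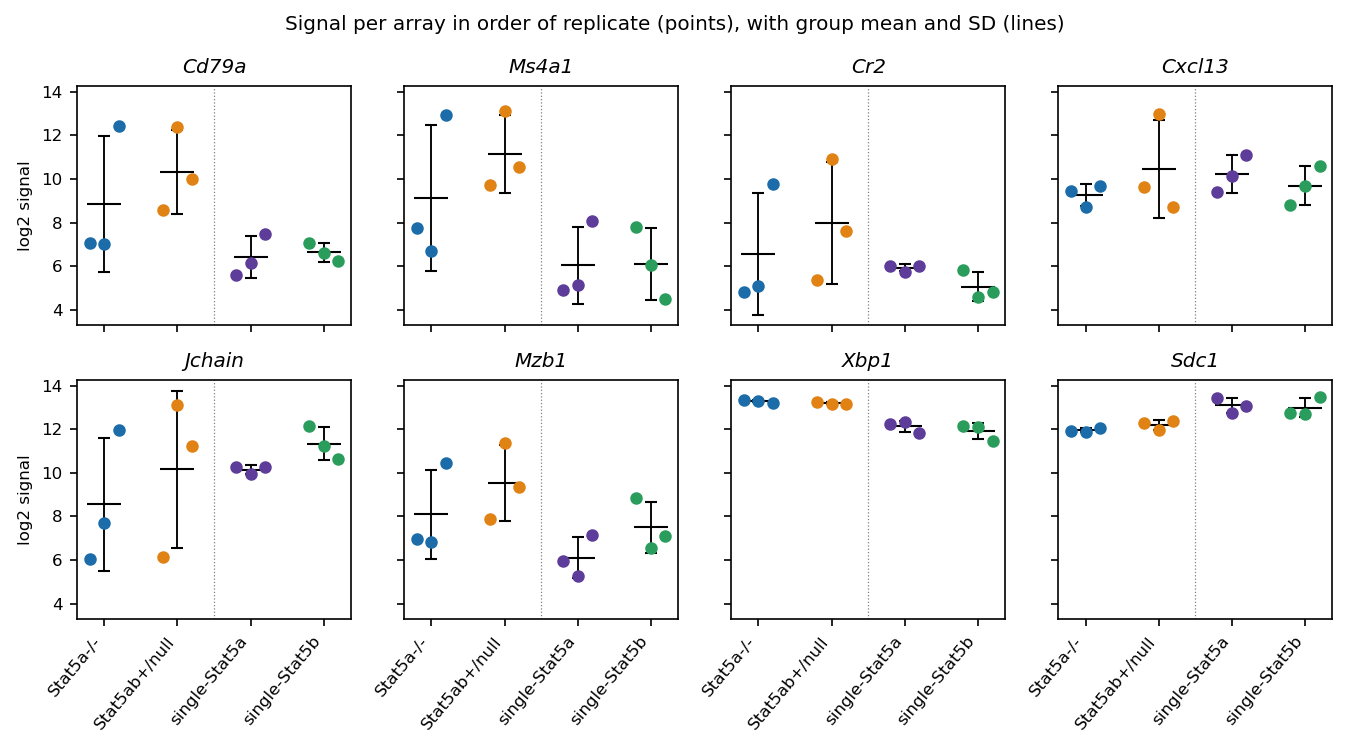
Log2 signal of 8 members in each array (points, in order of replicate within a genotype), with the mean and SD of the 3 arrays of each genotype. Cd79a, Ms4a1, Cr2, Jchain and Mzb1 spread over 4.53 to 7.08 on the log2 scale in the mice with 2 alleles, Cxcl13 has 1 high array, and Xbp1 and Sdc1 spread over 0.17 and 0.49.

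Plasma cell genes did not vary as a group. Jchain, which links antibody subunits, had the widest range of any member, at 6.05, 7.70 and 11.96 in Stat5a-/- and 6.14, 13.12 and 11.22 in Stat5ab+/null, a 135-fold span. Mzb1, a chaperone of antibody secretion also present in B cells, gave 6.97, 6.84 and 10.46, and then 7.87, 11.37 and 9.34. Both followed the follicular genes, with Stat5ab+/null 3 closer to the top for Jchain. Xbp1, the factor that drives the secretory program, gave 13.32, 13.30 and 13.22 in Stat5a-/- and 13.23, 13.15 and 13.17 in Stat5ab+/null. Sdc1, the plasma cell and epithelial surface protein CD138, gave 11.93, 11.88 and 12.06, and then 12.29, 11.95 and 12.37. Irf4, a factor of activated B and plasma cells, gave 9.35, 9.80 and 10.04, and then 9.52, 10.10 and 10.17. These 3 genes showed no array apart from the rest, and Prdm1, the repressor that ends the B cell program, stayed within 7.05 to 7.58. Over the 6 arrays the mean of 12 epithelial marker genes lay within 12.05 to 12.36. The part of epithelial cells in the Xbp1 and Sdc1 signal was not tested.

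Comparing the genotypes, no member passed the test between Stat5a-/- and Stat5ab+/null in limma (0 of 31 with an adjusted p under 0.05, against 1 of 14198 genes or 0.00704%), and 0 of 31 had an unadjusted p under 0.05, against 3.01% of genes. This comparison exchanges a Stat5a allele for a Stat5b allele at the same total. The member means were lower in Stat5a-/- for 30 of 31 members (66.4% of all genes), with a median log2 difference of -0.72 (-0.83 for follicular, -0.25 for plasma cell and -0.83 for other lineage genes) against -0.076 for all genes. The groups overlapped for all 31 members, whereas they did not overlap for 19.1% of all genes (5.49% higher and 13.6% lower in Stat5a-/-). Cd79a was 8.84 ± 3.12 (SD, n = 3) in Stat5a-/- and 10.34 ± 1.93 in Stat5ab+/null, a difference of -1.50 (SE 1.24, 95% interval -4.19 to 1.19, limma adjusted p = 1.00 over all genes). Ms4a1 differed by -2.00 (SE 1.46, -5.17 to 1.17) and Jchain by -1.59 (SE 1.56, -4.97 to 1.78), with the same adjusted p. Xbp1 was 13.28 ± 0.05 against 13.19 ± 0.04, a difference of 0.094 (SE 0.20, -0.34 to 0.53).

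The size and direction in this comparison rested on single mice. Within Stat5a-/- the 3 arrays spanned more than the difference between the genotypes for 29 of 31 members, and within Stat5ab+/null for 30 of 31, against 75.8% and 79.2% of all genes. The median member difference between the arrays labelled Stat5a-/- and Stat5ab+/null went to 0.084 without Stat5ab+/null 2 and to -1.78 without Stat5a-/- 3, and lay at -1.43 without Stat5ab+/null 1, -0.24 without Stat5a-/- 1 and -0.23 without Stat5a-/- 2. Without Stat5a-/- 3 no member passed in limma, but 19 of 31 had an unadjusted p under 0.05 (12 of 31 in the interaction), against 2.8% of all genes (6.54%). With Stat5a-/- 3 and Stat5ab+/null 2 both left out, which was chosen after seeing the data, the median was -0.71 and again no member passed. Here 11 of 31 had an unadjusted p under 0.05, against 1.49% of genes. The arrays left out are those where most members were highest, so leaving them out narrows the members' spread by that choice. The members also vary together from mouse to mouse. These counts of members are thus not independent and give no support for a difference.

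**Figure D3:**
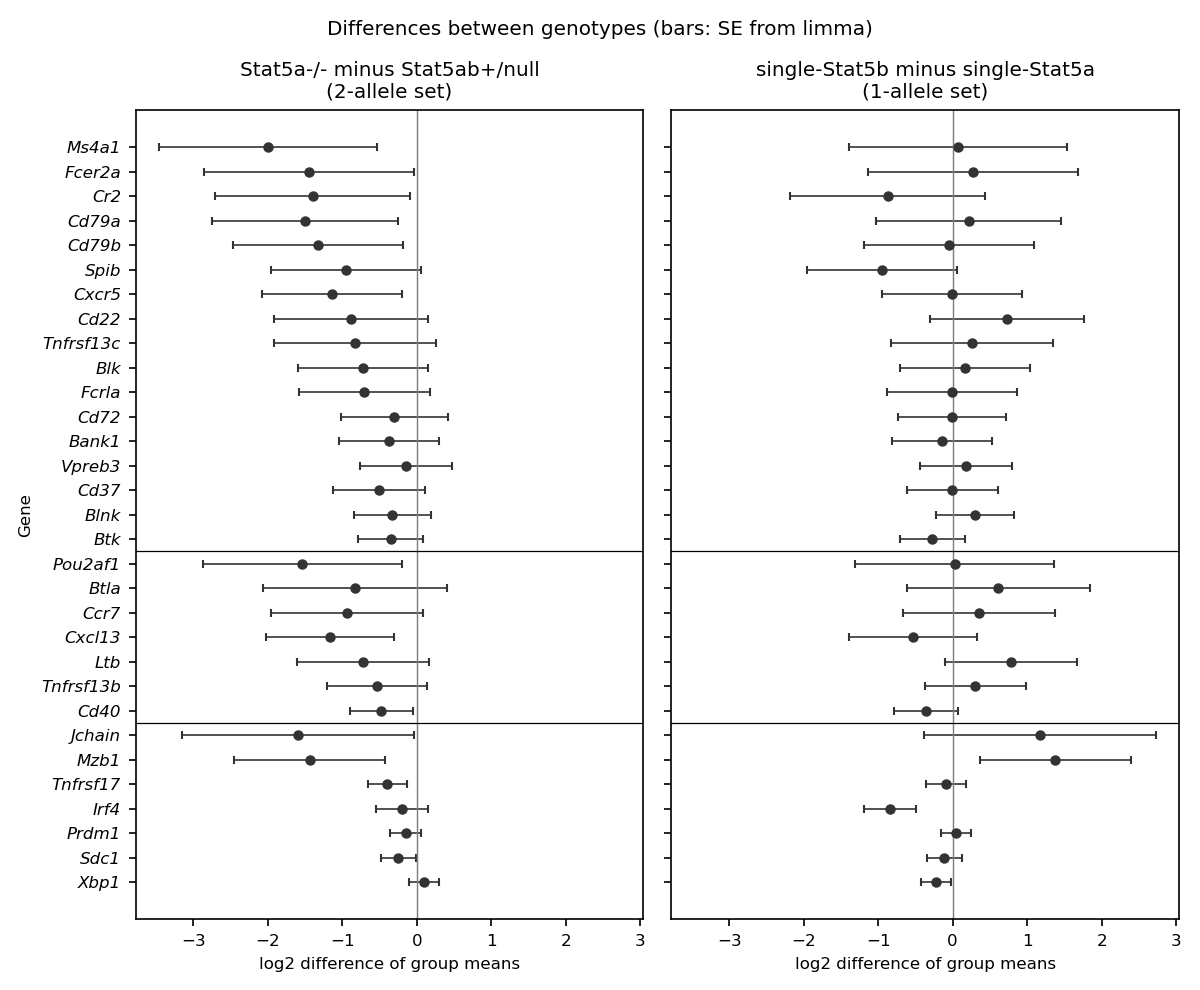
Difference of group means on the log2 scale for the 31 members, with the SE from the limma fit, in the mice with 2 alleles (left) and 1 allele (right). On the left all points but Xbp1 lie below 0 and none is called. On the right the points lie on both sides of 0.

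Among the mice with 1 intact allele, the comparison of single-Stat5b with single-Stat5a concerns the identity of the last isoform. No member passed in limma (0 of 31, against 310 of 14198 genes or 2.18%, with 0.817% higher and 1.37% lower in single-Stat5b), and 1 of 31, Irf4, had an unadjusted p under 0.05, against 11.6% of genes. The median member difference was 0.027, with 16 members above and 15 below 0, against -0.027 for all genes, of which 54.1% lay below 0. Irf4 gave 12.12, 10.70 and 11.08 across the single-Stat5a arrays, in order of replicate, and 10.00, 10.52 and 10.86 across the single-Stat5b arrays, a difference of -0.84 (SE 0.35, limma adjusted p = 0.356). Its groups overlapped, and the difference was -0.43 without single-Stat5a 1. With arrays weighted by their fit to the model, Irf4 fell by 1.57 on the log2 scale and passed (limma adjusted p = 0.0125), in a setting that called 15.7% of all genes.

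Jchain was the 1 member whose groups did not overlap in this set, where 10.9% of all genes had no overlap (4.63% higher and 6.26% lower in single-Stat5b). It gave 10.26, 9.93 and 10.26 in single-Stat5a and 12.13, 11.21 and 10.64 in single-Stat5b, so that every single-Stat5b array was above every single-Stat5a array. The difference was 1.18 (SE 1.56, 95% interval -2.20 to 4.55, limma adjusted p = 0.873). Mzb1 gave 5.93, 5.26 and 7.14, and then 8.83, 6.56 and 7.08, a difference of 1.38 (SE 1.02, adjusted p = 0.716). Both SE values take in the wide spread of the mice with 2 alleles. In a fit of these groups alone no member passed either, with 6 of 31 at an unadjusted p under 0.05, against 6.94% of genes. The mean signal of 12 epithelial genes lay at 11.34 to 11.89 in single-Stat5a and 11.50 to 12.21 in single-Stat5b.

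Follicular genes had no array that led all of them in the mice with 1 allele. Their mean was 7.06, 7.02 and 7.67 in single-Stat5a and 7.66, 6.87 and 7.20 in single-Stat5b. Their median range over the 6 arrays was 1.26 on the log2 scale, against 0.92 for all genes. Each of the 17 had a wider range in the mice with 2 alleles, as did 17.5% of all genes. No effect of the number of alleles is read from this, since the sets also differ in the actin control. Cd79a gave 5.60, 6.16 and 7.50 in single-Stat5a and 7.08, 6.62 and 6.22 in single-Stat5b. Ms4a1 gave 4.92, 5.13 and 8.08, and then 7.81, 6.04 and 4.50. Single-Stat5a 3 and single-Stat5b 1 were thus the high arrays for these genes. Cr2 gave 6.02, 5.75 and 6.02, and then 5.81, 4.57 and 4.80. These values all lay under the filter level of 6.04, as did those of Cxcr5, at 4.63 to 5.71. Fcer2a, at 5.59 to 6.41, Blk, at 5.54 to 6.62, and Vpreb3, at 6.04 to 6.49, lay near that level. Cd79a and Ms4a1 also had arrays under it. The order and range of these genes in this set, Cr2 and Cxcr5 included, may thus be background in part or whole. Single-Stat5b 1, single-Stat5b 3 and single-Stat5a 3 were each the highest array for several members. Over all genes tested, the mean was also highest in single-Stat5b 3, at 9.46, and it was lowest in single-Stat5b 2, at 9.21. Those led by single-Stat5b 1 included Tnfrsf13c (9.84, against 7.29 to 8.91 in the other 5 arrays), Ccr7 (7.44, against 3.92 to 5.39) and Mzb1. Those led by single-Stat5b 3 included Cd22, Cd37, Cd72 and Sdc1.

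The brightest members of each role, given in the same order of arrays, differed in which array was highest. For the receptor and its coreceptor, Cd79b gave 8.46, 8.15 and 8.93, and then 8.49, 7.75 and 9.16. Cd72 gave 9.54, 9.37 and 9.56, and then 9.60, 8.90 and 9.94. Both were highest in single-Stat5b 3 and lowest in single-Stat5b 2. In receptor signalling, Blnk gave 8.41, 8.81 and 9.14, and then 9.25, 8.53 and 9.47, while Bank1 gave 8.44, 8.80 and 9.08, and then 9.00, 8.61 and 8.30. Blnk was thus highest in the array that was lowest for Bank1. On the surface, Cd37 gave 8.66, 8.57 and 8.31, and then 8.13, 8.10 and 9.30. Fcrla gave 6.93, 6.42 and 7.11, and then 6.87, 6.13 and 7.44. Vpreb3 gave 6.10, 6.04 and 6.32, and then 6.40, 6.49 and 6.10, the narrowest range of any member past the filter in this set. Among transcription factors, Pou2af1 gave 7.58, 7.17 and 8.69, and then 8.69, 8.43 and 6.41. Spib gave 8.18, 7.46 and 8.83, and then 7.51, 6.82 and 7.30. Single-Stat5a 3 was highest or level with the highest for both. Of the survival receptors, Tnfrsf13c gave 7.64, 7.80 and 8.91, and then 9.84, 7.99 and 7.29. Tnfrsf13b gave 6.79, 6.78 and 7.51, and then 7.54, 6.92 and 7.54, so that single-Stat5b 3 was low for the former and high for the latter. In the follicle, Cxcl13 gave 9.40, 10.15 and 11.12, and then 8.83, 9.67 and 10.59, and Cd40 gave 8.99, 8.84 and 9.06, and then 8.84, 8.04 and 8.95. Single-Stat5a 3 was highest for both. Of the plasma cell genes, Xbp1 gave 12.23, 12.32 and 11.84, and then 12.13, 12.11 and 11.47. Sdc1 gave 13.44, 12.75 and 13.07, and then 12.76, 12.70 and 13.48, so that single-Stat5b 3 was the lowest array for Xbp1 and the highest for Sdc1.

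The difference between the sets in the effect of exchanging alleles was tested as an interaction. No member passed in limma (0 of 31, against 0.775% of genes, with 0.38% higher and 0.394% lower), with 0 of 31 at an unadjusted p under 0.05, against 7.23%. The member with the largest estimate was Mzb1, at 2.82 (SE 1.44, limma adjusted p = 0.790).

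Levels in the 2 sets are given side by side without a comparison, and no direction between the sets is read from them. Cd79a lay at 7.02 to 12.44 in the mice with 2 alleles and 5.60 to 7.50 in those with 1 allele, Cd37 at 9.61 to 12.24 and 8.10 to 9.30, and Cd72 at 7.22 to 10.48 and 8.90 to 9.94. Jchain lay at 6.05 to 13.12 and 9.93 to 12.13, Tnfrsf17 at 6.61 to 7.48 and 7.65 to 8.60, and Sdc1 at 11.88 to 12.37 and 12.70 to 13.48. Xbp1 lay at 13.15 to 13.32 and 11.47 to 12.32. Probe sets of 1 gene did not always lie alike across the sets. Another Sdc1 probe set gave 10.28 to 11.04 in the mice with 2 alleles and 5.90 to 6.63 in those with 1 allele, the opposite order. Within the mice with 2 alleles, the probe sets past the filter of Ms4a1, Cd22, Cd37, Cd40, Cxcl13 and Fcrla all had Stat5a-/- 3 and Stat5ab+/null 2 on top, and none of Xbp1, Irf4 and Sdc1 did.

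Antibody genes themselves were read from the 6 of 17 listed immunoglobulin genes past the filter, whose near-identical copies can share signal. Stat5a-/- 3 and Stat5ab+/null 2 were on top for 4 of the 6 (Ighm, Ighg3, Iglv1 and Igk), against 9.73% of all genes. Igha and Igll1 were the exceptions. Ighm, the heavy chain of IgM, gave 10.86, 11.01 and 13.35 in Stat5a-/- and 11.21, 14.38 and 12.29 in Stat5ab+/null. It was highest in the arrays that were highest for Ms4a1, and 7 of its 9 probe sets past the filter had that pair on top. Igha, the heavy chain of the IgA that enters milk, gave 6.51, 8.80 and 7.23, and then 6.14, 10.03 and 7.25. None of its 3 probe sets had that pair on top, since Stat5a-/- 2 lay above Stat5a-/- 3. In the mice with 1 allele Igha lay at 10.60 to 11.44 in single-Stat5a and 10.90 to 12.32 in single-Stat5b. No immunoglobulin gene was called between Stat5a-/- and Stat5ab+/null (0 of 6, against 0.00704% of all genes). None was called between single-Stat5b and single-Stat5a either (0 of 6, against 2.18%).

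Other genes of the B cell receptor pathway, beyond the members, followed in part. Of 20 listed genes 17 were past the filter, and 13 of them had Stat5a-/- 3 and Stat5ab+/null 2 on top, against 9.73% of all genes. The median range of the 17 over these 6 arrays was 1.10 on the log2 scale, against 4.19 for follicular genes. Only 1 of 17 reached a range of 2. Ptprc, the phosphatase CD45 of all white blood cells, gave 11.15, 10.95 and 12.39, and then 11.23, 12.74 and 11.25. None of the 17 was called between Stat5a-/- and Stat5ab+/null, against 0.00704% of all genes. Between single-Stat5b and single-Stat5a, 1 of 17 rose, against 0.817% of all genes, and none fell, against 1.37%. This was Pik3ap1, the adaptor BCAP that links the receptor to PI3-kinase, at 8.25, 8.23 and 8.25 in single-Stat5a and 10.69, 10.53 and 10.96 in single-Stat5b. It rose by 2.48 (SE 0.30, limma adjusted p = 0.000362) with no overlap, 3 of 3 arrays in each group, while a second probe set of the gene differed by 0.29. Germinal centre genes, which mark B cells that are maturing their receptor, had 4 of 8 past the filter, none with the pair on top. Between single-Stat5b and single-Stat5a 1 of these 4 fell, against 1.37% of all genes. This was Fas, the death receptor, by 0.91 (SE 0.19, limma adjusted p = 0.0227). That call was lost in a fit of these groups alone (adjusted p = 0.139). It was also lost when single-Stat5a 1 (0.0968) or 2 (0.0872) was left out, or single-Stat5b 1 (0.0688). Of 6 genes of early B cell development past the filter 0 were called between Stat5a-/- and Stat5ab+/null (0.00704% of all genes). Likewise 0 were called between single-Stat5b and single-Stat5a (2.18%). Only 1 of 6, Il7r, had the pair on top. None of 16 genes of the secretory pathway that plasma cells expand was called in these comparisons. The pair was on top for 2 of 16, against 9.73% of all genes.

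Markers of other cells moved with the B cell genes from mouse to mouse. The mean of the 17 follicular genes was 7.12, 7.02 and 10.67 in Stat5a-/- and 7.73, 11.03 and 8.68 in Stat5ab+/null. For the 11 of 18 T cell genes past the filter it was 7.28, 7.32 and 8.39, and then 7.41, 9.19 and 7.56. Of these, 9 of 11 were highest in the same pair. T cell genes below the filter are not in this count. Past the filter were 4 genes of lymph node stroma and high endothelium. Of these, Glycam1, a ligand for lymphocyte entry that mammary epithelium also makes, gave 5.39, 5.64 and 12.16, and then 5.70, 12.54 and 7.77. The pair was on top for 3 of the 4, but Madcam1, at 7.41 to 8.68, and Fut7, at 7.41 to 7.94, spanned less than Glycam1. Pdpn was lowest in Stat5ab+/null 2. Chst4, below the filter, also had the pair on top, at 4.31, 4.34 and 5.73, and then 4.16, 5.51 and 4.44. For 8 skeletal muscle genes the mean was 7.03, 6.99 and 10.23, and then 7.18, 9.26 and 6.84, with 8 of 8 highest in the pair. The muscle mean thus stood high in Stat5a-/- 3 and Stat5ab+/null 2 but not in Stat5ab+/null 3, the next highest array for B cell genes. Single muscle genes differed in this. Stat5ab+/null 3 came next after the pair for 3 of 8 (Ckm, Myl1 and Tnnt3), against 4.64% of all genes. It was the lowest array for 4 of 8 (Acta1, Actn3, Pvalb and Mylpf), against 10.5% of all genes. Myl1 gave 11.11 in Stat5ab+/null 3, near its 11.19 in Stat5ab+/null 2. Epithelial genes (0 of 12) and white adipocyte genes (0 of 7) did not have the pair on top, and 2 of 12 myeloid genes did. The part of these cell types in the B cell differences was not tested.

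**Figure D4:**
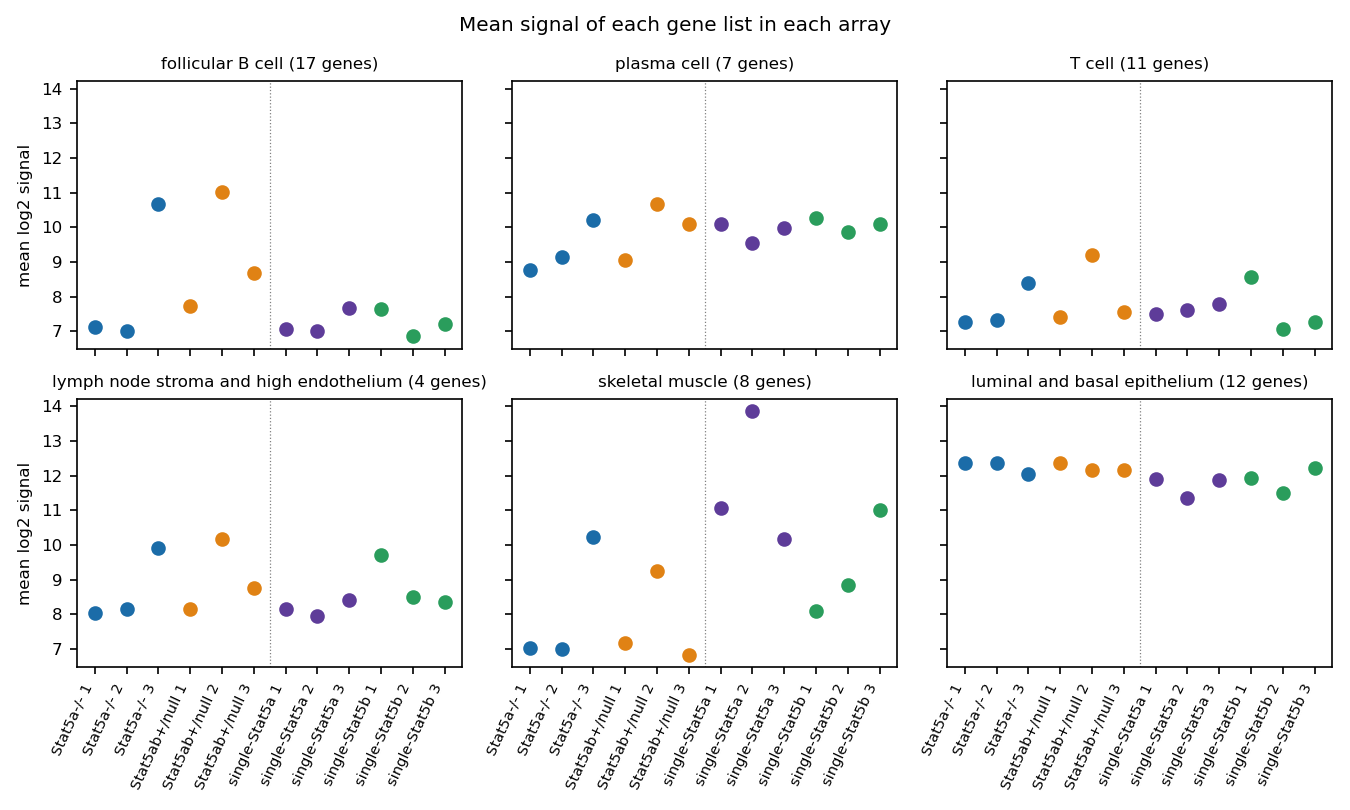
Mean log2 signal of the genes past the filter from 6 lists in each array, by genotype and replicate, with a dotted line between the array sets. Follicular, plasma cell, T cell, lymph node and muscle means are highest in Stat5a-/- 3 and Stat5ab+/null 2 among the 6 arrays at the left. Of the 7 plasma cell genes, 2 have this pair on top. The plasma cell mean of Stat5ab+/null 3, 10.11, lies near those of the pair, 10.23 and 10.67. The epithelial means of the 6 arrays lie within 12.05 to 12.36.

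In the mice with 1 allele the T cell and muscle lists had other arrays on top. The T cell mean was 7.51, 7.63 and 7.78 in single-Stat5a and 8.56, 7.06 and 7.29 in single-Stat5b, and Glycam1 gave 5.47, 5.15 and 5.99, and then 11.96, 7.75 and 6.39. Single-Stat5b 1 was highest for the T cell mean and Glycam1, the 1 of 4 lymph node genes to peak there, and was also highest for Jchain, Mzb1, Ccr7 and Tnfrsf13c among the members. Its mean over follicular genes, 7.66, lay beside that of single-Stat5a 3, 7.67. The muscle mean was 11.08, 13.85 and 10.16 in single-Stat5a and 8.08, 8.83 and 11.01 in single-Stat5b, so that the array highest for muscle, single-Stat5a 2, was not high for B cell genes. Their part in the differences between these mice was not tested.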

How the data were processed

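Total RNA of 12 mammary samples was labelled as biotin cRNA and hybridized to Affymetrix mouse arrays, per the labels' protocols. The values are log2 signals per probe set as deposited by the authors, who used RMA and Partek per the submitters' processing notes. No source used here gives their versions. Background was not measured, so a low signal may be background and a difference from it may be understated.

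Genotypes came from the labels, and replicates were numbered in order of the records, with no pairing. The series design gives 3 mice per genotype, and this number limits the precision. Probe sets were named from the platform annotation: 34945 named 1 gene, 932 several (not used), 9160 none, and the other 64 were array controls. The filter removed probe sets whose mean fell under the 30th percentile. Genotypes were compared with limma 3.58.1 in R 4.3.3, with 1 mean per genotype over the 12 arrays, moderated 2-sided tests, Benjamini-Hochberg adjustment over 14198 genes and calls below 0.05. The fit was tested on simulated data.

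The members, lists and tests were chosen with earlier results of these data known. Values in every array were printed for the 2 members of each role group with the highest mean signal, and in part or whole for Cd79a, Cr2, Cxcr5, Ccr7, Mzb1, Tnfrsf17 and Pax5 after their values were seen. Of each other list at most 3 genes, the brightest, and the called ones were to be named. Further genes of the immunoglobulin, lymph node and muscle lists, Fut7 among them, were named after their values were seen. Alternatives were the filter dropped or set to the 50th percentile, quantile normalization, centring, averaged probe sets, a trended robust variance, array weights, a fit of the groups compared, each array left out and, added after seeing the data, 2 arrays left out together.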

Additional observations from a re-analysis of the deposited data

Results flagged for a closer look

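Pik3ap1, of the B cell receptor pathway list, differed between the array sets in the effect of exchanging a Stat5a for a Stat5b allele, by a test of that difference itself: 2.57 on the log2 scale (SE 0.42, limma adjusted p = 0.00981). The single-Stat5b minus single-Stat5a difference was 2.48 and the Stat5a-/- minus Stat5ab+/null difference -0.088, with no overlap of 3 against 3 arrays in the former. Its other probe set gave 0.29 and -0.20. In the test of that difference 1 of 17 genes of the list passed, against 0.775% of all genes.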

How the results depend on the processing

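No paired analysis was possible because the labels give no replicate numbers that the genotypes share. Over 21 alternatives no member passed between Stat5a-/- and Stat5ab+/null. With array weights 1 member, Irf4, passed between single-Stat5b and single-Stat5a and 1, again Irf4, in the interaction, and none did in the other alternatives. The median member difference lay at -1.78 to 0.084 in the mice with 2 alleles and -0.076 to 0.22 in those with 1 allele when each array was left out, and at -1.20 to -0.63 and 0.012 to 0.29 in the other alternatives. Leaving out each array gave -3.00 to 0.084 for Cr2, -2.03 to 0.11 for Cxcl13 and -0.34 to 0.34 for Pik3ap1 between Stat5a-/- and Stat5ab+/null, and -0.19 to 0.76 for Cd79a and -0.78 to 1.09 for Ms4a1 between single-Stat5b and single-Stat5a. With Stat5a-/- 3 and Stat5ab+/null 2 left out together, Pik3ap1 gave 0.23 in the former. Leaving out an array changes these values through fewer samples. Pik3ap1 between single-Stat5b and single-Stat5a passed in all alternatives, at 1.39 with the mean of its probe sets and 2.37 to 2.58 with each array left out. Of 418 values of named genes under alternatives, 403 kept their direction and side of the threshold. With 3 arrays per genotype and this spread, the intervals given for Cd79a, Ms4a1 and Jchain between Stat5a-/- and Stat5ab+/null are wide. They reach both directions, further downward than upward. That of Xbp1 is much narrower.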

Other observations

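Probe sets annotated to Ighm did not all lie alike between the mice with 1 allele. One, chosen after its values were seen, gave 8.27, 9.42 and 9.60 in single-Stat5a and 4.58, 4.17 and 5.10 in single-Stat5b, with no overlap, and 5.59 to 11.02 in the 6 arrays with 2 alleles. The Ighm probe set with the highest mean gave 11.23, 12.52 and 12.49, and then 12.07, 10.07 and 10.69, with overlap. A further one gave 12.84 in single-Stat5b 1, 8.76 and 9.29 in the other single-Stat5b arrays and 7.62 to 8.60 in single-Stat5a. Il7r, the interleukin 7 receptor of early B and of T cells, gave 8.06, 8.23 and 9.03 in single-Stat5a and 10.38, 9.21 and 10.61 in single-Stat5b, with no overlap and without passing in limma (adjusted p = 0.387).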
